A study of Mus musculus with 20 samples.

Results

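Transcripts of 7 genes were followed across the prostates of 5 inbred mouse strains: the secreted proteins Azgp1, Sbp, Rnase1, Pbsn and Apof, the polyamine enzyme Odc1 and the export pump Abcc4. All array elements (spots of cloned cDNA) whose only annotated gene symbol was 1 of these 7 were taken, 23 of the 11552 elements on the array. Pbsn held 12 of them, Odc1 held 4, Sbp held 3, and Azgp1, Rnase1, Apof and Abcc4 held 1 each. No value was missing for any of the 23 elements on any of the 20 arrays, and all 23 passed the limit on missing values.

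The groups were untreated male mice of C57BL/6J, 129X1/SvJ, FVB/NJ, BALB/c (BALB/cAnNCrl) and DBA/2 (DBA/2NCrl), aged 8 to 9 weeks, without a transgene. Each strain gave 12 mice in 4 pools of 3, and each pool combined equal amounts of RNA of the dorsal, lateral, ventral and anterior lobes. Amplified RNA of each pool was hybridised on a cDNA array with 2 dyes against a common reference made from all samples of all strains, with the pool in Cy5 on 2 arrays of each strain and in Cy3 on the other 2. A value is the log2 ratio of the pool over that reference, so it compares pools for 1 element and gives no level of a gene, and neither the presence of prostate markers nor levels of different genes could be read from it. C57BL/6J, 129X1/SvJ and FVB/NJ mice came from one supplier and BALB/c and DBA/2 mice from another, so that strain and supplier cannot be told apart between these sets. The pools of a strain came from different mice, so the spread between them includes differences between animals, averaged over the 3 mice of a pool. In whole glands, fewer cells of a type and less RNA per cell cannot be told apart.

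Luminal epithelial cells of the prostate make the bulk of its fluid, and much of their secretory program depends on androgen acting through the androgen receptor. The gland is also known for its very high polyamine content: ornithine decarboxylase, the product of Odc1, makes putrescine from ornithine at the rate-limiting step, putrescine is built up to spermidine and spermine, and spermine binding protein, the product of Sbp, is secreted with them. Pbsn encodes probasin, a lipocalin whose androgen-dependent promoter is widely used to drive transgenes in the prostate epithelium. Azgp1 encodes zinc-alpha-2-glycoprotein, a secreted protein with a fold like that of MHC class I molecules, and Rnase1 a secreted ribonuclease of the pancreatic type. Apof encodes apolipoprotein F, a plasma protein that regulates lipid transfer, and Abcc4 a membrane pump that exports cyclic nucleotides, prostanoids and conjugated steroids.

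The start regions of Azgp1, Sbp, Odc1 and Pbsn are shown because the first 3 of these genes had the same highest strain and Pbsn did not follow them. Each runs 5′ to 3′ from 250 bases before to 50 bases after an annotated start, from the RefSeq sequence of GRCm38.p6, which is that of C57BL/6J and holds no variant of the other strains. Capitals mark 3 motifs, each searched on both strands. The half-site bound by the androgen receptor and its relatives was taken as AGAACA, which reads TGTTCT when it lies on the opposite strand. The TATA box was taken as TATAAA with its reverse complement, and the GC box as GGGCGG, which reads CCGCCC on the opposite strand. No matches overlapped in these windows.
Azgp1 (chr5:137981271-137981570, + strand): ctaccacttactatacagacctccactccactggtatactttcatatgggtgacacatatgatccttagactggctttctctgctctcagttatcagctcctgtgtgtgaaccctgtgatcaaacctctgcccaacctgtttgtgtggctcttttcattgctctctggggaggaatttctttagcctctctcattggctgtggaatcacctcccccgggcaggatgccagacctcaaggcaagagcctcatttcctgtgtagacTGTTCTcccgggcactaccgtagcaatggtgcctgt
Sbp (chr17:23941668-23941967, + strand, 1 of 3 annotated starts): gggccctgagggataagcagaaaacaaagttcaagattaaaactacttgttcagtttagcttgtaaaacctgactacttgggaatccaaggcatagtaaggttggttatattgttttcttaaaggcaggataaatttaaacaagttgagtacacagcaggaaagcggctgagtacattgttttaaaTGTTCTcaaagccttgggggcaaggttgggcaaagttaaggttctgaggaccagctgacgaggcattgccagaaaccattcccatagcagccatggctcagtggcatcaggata
Odc1 (chr12:17544623-17544922, + strand): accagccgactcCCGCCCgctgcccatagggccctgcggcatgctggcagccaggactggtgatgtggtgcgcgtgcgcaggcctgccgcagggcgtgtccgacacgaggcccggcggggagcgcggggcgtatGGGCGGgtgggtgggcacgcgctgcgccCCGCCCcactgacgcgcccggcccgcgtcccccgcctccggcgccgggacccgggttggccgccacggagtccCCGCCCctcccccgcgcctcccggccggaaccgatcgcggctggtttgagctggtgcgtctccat
Pbsn (chrX:77853451-77853750, - strand): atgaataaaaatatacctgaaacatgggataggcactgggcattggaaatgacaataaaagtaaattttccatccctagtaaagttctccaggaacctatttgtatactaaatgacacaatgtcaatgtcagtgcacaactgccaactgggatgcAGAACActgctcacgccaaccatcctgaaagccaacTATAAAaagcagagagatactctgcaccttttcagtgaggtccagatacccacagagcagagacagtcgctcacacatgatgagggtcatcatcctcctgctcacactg
AGAACA occurred once in the windows of Azgp1, Pbsn and this start of Sbp, and in 19.0% of all 32851 promoter windows of the same length. Pbsn alone of the 4 also held TATAAA, found in 13.6% of all windows. Odc1 held no AGAACA but 4 copies of GGGCGG, found in 35.7% of all windows, and its window was 78.0% G and C, against 50.3% in Azgp1, 43.3% in Pbsn and 43.0% in the window shown for Sbp. The other 2 starts of Sbp and the window of Rnase1 held no AGAACA, and 1 of the 2 windows of Abcc4 held a single copy. The full androgen receptor repeat (AGAACA followed after 3 bases by its own reverse complement) was in none of the 9 windows of 6 member genes and in 3 of all windows. A match describes letters in the reference sequence and is neither a bound site nor a cause of a strain difference.

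The question put to each gene was whether its transcript differed among the strains by more than among pools of a strain. In an F test of the 5 strains with limma, with p-values adjusted over all elements by Benjamini-Hochberg and a limit of 0.1, 11 of the 23 member elements passed, where 11.3% of all 11159 tested elements did. They were the elements of Azgp1, Rnase1 and Abcc4, all 3 of Sbp, all 4 of Odc1 and 1 of the 12 of Pbsn. By the element that represents each gene (fewest missing values, then lowest element number), 5 of the 7 genes passed, Pbsn and Apof not. With the dye of the pool as a further term the count was 22 of 23, since every element of Pbsn then passed, where 15.6% of all elements did. Elements of 1 gene are not independent measurements of it. All 4 elements of Odc1, 11 of the 12 of Pbsn and 2 of the 3 of Sbp share 1 annotated accession within their gene, and since clones are not named they may be repeated spots of few clones, so counts of elements are not counts of separate findings.

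**Figure D1:**
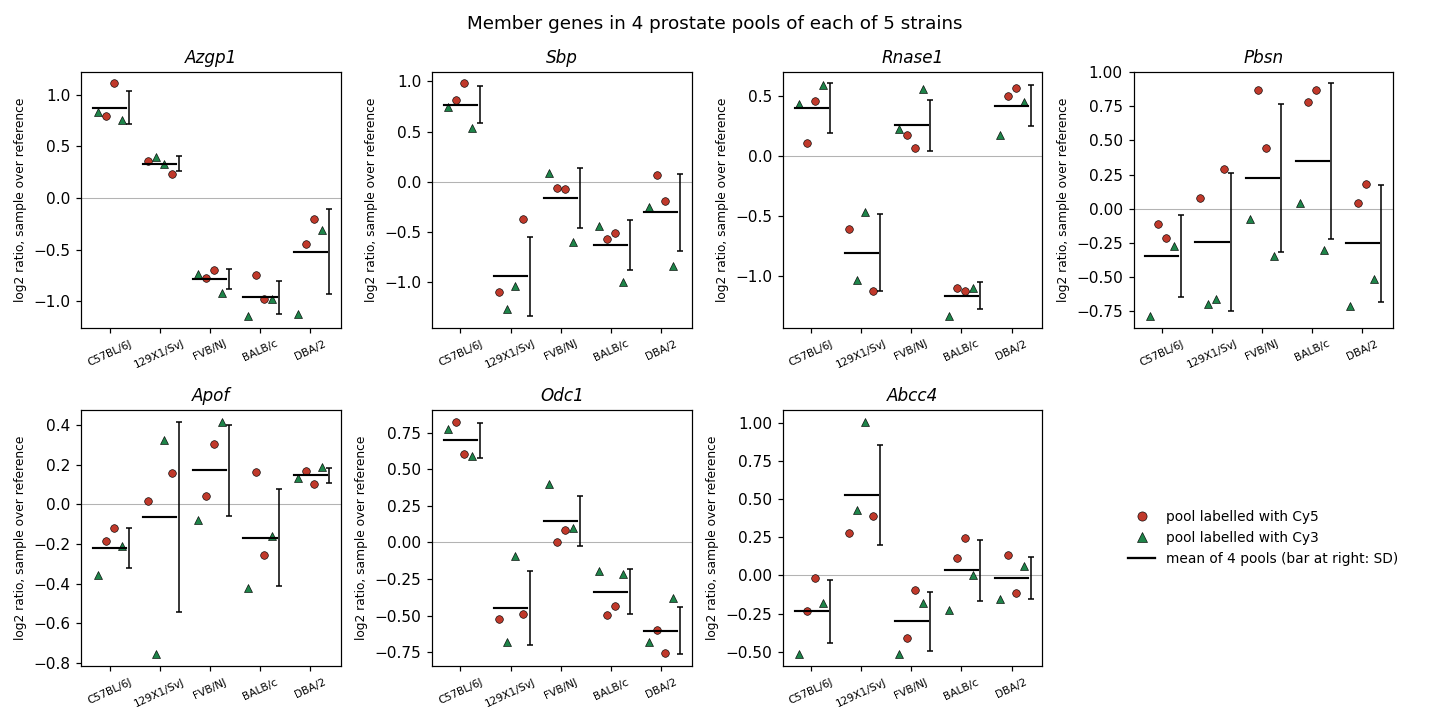
Log2 ratio of pool over common reference (vertical axis, 1 panel a gene, each with its own scale) in the 4 pools of each strain (horizontal axis), for the representing element of each of the 7 genes. Circles are pools labelled with Cy5, triangles pools labelled with Cy3, the line is the mean and the bar the SD. Azgp1, Sbp and Odc1 were highest in C57BL/6J with no overlap with another strain, Rnase1 was low in 129X1/SvJ and BALB/c, and the Cy5 pools of Pbsn lay above its Cy3 pools in every strain.

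Azgp1, Sbp and Odc1 shared their highest strain. Set against the mean of the other 4 strain means (limma, adjusted p under 0.05 over all elements), C57BL/6J was higher for 9 member elements, those of Azgp1, Sbp and Odc1 and that of Rnase1, where 1.77% of all elements were higher in C57BL/6J, and it was lower for none, where 1.44% of all elements were (3 member elements were lower at an unadjusted p under 0.05, 2 of Pbsn and that of Abcc4). For 8 of these 9 elements, all but Rnase1, the 4 C57BL/6J pools lay above all 16 other pools, which was so for 0.502% of all elements. The 9 calls were made again without the 129X1/SvJ arrays. On the 10 arrays with the pool in Cy5 alone 5 were made, where 0.335% of all elements were higher in C57BL/6J, and on the 10 with it in Cy3 alone 9, where 1.00% were.

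Azgp1 (element 7947) stood at 0.83, 0.80, 1.11 and 0.75 in the 4 C57BL/6J pools. It stood at 0.36, 0.40, 0.33 and 0.23 in 129X1/SvJ, at -0.74, -0.77, -0.70 and -0.92 in FVB/NJ, at -1.14, -0.75, -0.98 and -0.98 in BALB/c, and at -1.12, -0.45, -0.20 and -0.31 in DBA/2. Every C57BL/6J pool was above every other pool, the 129X1/SvJ pools formed a second tier with no overlap with any strain, and the remaining strains overlapped, DBA/2 pool 1 lying among the BALB/c pools. The second tier was read from the values themselves, and the share of all elements with such a tier was not counted. The strain means were 0.87 ± 0.16 in C57BL/6J, 0.33 ± 0.07 in 129X1/SvJ, -0.52 ± 0.41 in DBA/2, -0.78 ± 0.10 in FVB/NJ and -0.96 ± 0.16 in BALB/c (SD, n = 4 pools each), a range of 3.57-fold (limma F test, adjusted p = 1.28e-07).

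C57BL/6J exceeded the mean of the other strains for Azgp1 by 1.36 on the log2 scale (SE 0.12, limma adjusted p = 5.99e-07), or 2.56-fold. 129X1/SvJ was higher than the others by 0.68 (limma adjusted p = 1.53e-03), where 2.96% of all elements were higher in that strain. This call was lost with weights for the arrays (0.66) and on the Cy5 arrays alone (0.54). BALB/c was lower, at -0.94 against the others (limma adjusted p = 7.16e-05), as was FVB/NJ at -0.71 (adjusted p = 1.35e-03), where 1.12% and 1.34% of all elements were lower in those strains. The FVB/NJ call was lost on the Cy5 arrays alone (-0.75) and on the Cy3 arrays alone (-0.68). Each pair of strains was also tested on its own 8 arrays with limma (adjusted p under 0.05). The share of all elements called in either direction was 1.3% for C57BL/6J against 129X1/SvJ, 3.13% for C57BL/6J against FVB/NJ, 2.79% for C57BL/6J against BALB/c and 2.99% for C57BL/6J against DBA/2. It was 0.78% for 129X1/SvJ against FVB/NJ, 0.887% for 129X1/SvJ against BALB/c and 1.21% for 129X1/SvJ against DBA/2, and 2.41% for FVB/NJ against BALB/c, 3.73% for FVB/NJ against DBA/2 and 3.42% for BALB/c against DBA/2. The pairs share arrays and are not independent of each other. Over all 23 elements the members held 41 calls between pairs, 20 of them on the representing elements. For Azgp1, C57BL/6J differed from FVB/NJ, BALB/c and DBA/2, and 129X1/SvJ from FVB/NJ and BALB/c, 5 of 10 pairs. No 2 neighbours in the order of means passed (limma adjusted p of 0.0942 to 0.591, 8 of all 10 pairs at an unadjusted p under 0.05): C57BL/6J exceeded 129X1/SvJ by 0.54 (SE 0.13, adjusted p = 0.104), with no overlap of their pools.

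Sbp (element 3665) stood at 0.74, 0.82, 0.98 and 0.54 in C57BL/6J pools. In 129X1/SvJ it stood at -1.09, -1.26, -1.04 and -0.37, in FVB/NJ at 0.09, -0.06, -0.07 and -0.60, in BALB/c at -0.44, -0.57, -0.51 and -0.99, and in DBA/2 at -0.25, 0.07, -0.19 and -0.84. The lowest C57BL/6J pool was above the highest pool of any other strain, and 3 of the 4 lowest pools of the series were from 129X1/SvJ. The mean was 0.77 ± 0.18 in C57BL/6J and -0.94 ± 0.40 in 129X1/SvJ (SD, n = 4 each), 3.27-fold apart (limma F test over the 5 strains, adjusted p = 1.03e-04), with FVB/NJ at -0.16 ± 0.30, DBA/2 at -0.30 ± 0.38 and BALB/c at -0.63 ± 0.25 between them.

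The other elements of Sbp gave the same highest and lowest strain. Element 5184 ranged 3.89-fold (adjusted p = 3.95e-04) and element 10229 ranged 3.94-fold (adjusted p = 2.73e-03). C57BL/6J exceeded the mean of the others by 1.28 (SE 0.16), 1.44 (SE 0.21) and 1.71 (SE 0.27) on elements 3665, 5184 and 10229, with limma adjusted p-values of 5.54e-05, 1.73e-04 and 5.32e-04. In the tests of pairs C57BL/6J was higher than each of the other 4 strains on all 3 elements, and no pair without C57BL/6J passed on any of them (for element 3665, 7 of 10 pairs had an unadjusted p under 0.05). So only the step next to C57BL/6J was called in the order of strains: against FVB/NJ on element 3665 it was 0.93 (SE 0.16, adjusted p = 8.42e-03).

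129X1/SvJ was lower than the mean of the others for Sbp on 2 of 3 elements, by -0.86 (SE 0.16, limma adjusted p = 2.86e-03) and -1.01 (SE 0.21, adjusted p = 5.38e-03), where 2.74% of all elements were lower in 129X1/SvJ. Both calls were lost when arrays were scaled to the same spread (-0.56 and -0.67) and under quantile normalization (-0.51 and -0.61). The first was also lost on the Cy5 arrays alone (-0.79), and the second with weights for the arrays (-1.14). The log2 ratios of 129X1/SvJ arrays had a median absolute deviation (scaled to the SD) of 0.292 to 0.437, against 0.157 to 0.291 on the arrays of the other strains. Pool 4 of 129X1/SvJ was the highest of its strain on each of the 3 elements, at -0.37, -0.59 and 0.06.

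Odc1 (element 9895) stood at 0.78, 0.82, 0.60 and 0.59 in C57BL/6J pools. It stood at -0.53, -0.68, -0.09 and -0.49 in 129X1/SvJ, at 0.40, 0.01, 0.09 and 0.10 in FVB/NJ, at -0.20, -0.50, -0.43 and -0.21 in BALB/c, and at -0.68, -0.60, -0.75 and -0.38 in DBA/2. All C57BL/6J pools were above all others, and FVB/NJ, second in order, had no pool below any pool of 129X1/SvJ, BALB/c or DBA/2. How many of all elements have a second strain set apart in this way was not counted. The means were 0.70 ± 0.12 in C57BL/6J, 0.15 ± 0.17 in FVB/NJ, -0.34 ± 0.15 in BALB/c, -0.45 ± 0.25 in 129X1/SvJ and -0.60 ± 0.16 in DBA/2 (SD, n = 4 each), and C57BL/6J was 2.46-fold above DBA/2 (limma F test over the 5 strains, adjusted p = 3.12e-06).

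On each of the 4 Odc1 elements C57BL/6J was highest and DBA/2 lowest, with ranges of 2.46-fold to 2.75-fold, and C57BL/6J exceeded the mean of the others by 1.01 (SE 0.10), 1.18 (SE 0.15), 0.99 (SE 0.13) and 1.09 (SE 0.18) on elements 9895, 10087, 10982 and 11174 (limma adjusted p from 3.88e-06 to 1.02e-03). DBA/2 was lower than the others on 3 of the 4, at -0.62, -0.65 and -0.66, where 0.869% of all elements were lower in DBA/2. The call on element 10087 was lost without any 1 of DBA/2 pools 1, 2 and 3 (-0.58 to -0.62), and that on element 10982 without pool 2 or pool 3 (-0.59 and -0.62). Each of these DBA/2 calls was lost on the Cy5 arrays alone and on the Cy3 arrays alone (-0.82 to -0.49). 129X1/SvJ was lower on element 9895 only, at -0.42 (limma adjusted p = 0.0191). This call was lost under both rescalings (-0.26 and -0.19), with weights for the arrays (-0.39) and without pool 2 of that strain (-0.35). It was also lost on the Cy5 arrays alone (-0.41) and on the Cy3 arrays alone (-0.44).

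In the order of strains for Odc1 the step between C57BL/6J and FVB/NJ passed on element 9895 (0.55, SE 0.12, limma adjusted p = 0.0302) and not on element 11174 (adjusted p = 0.0958), while FVB/NJ against BALB/c (0.48, adjusted p = 0.0734), BALB/c against 129X1/SvJ (adjusted p = 0.915) and 129X1/SvJ against DBA/2 (adjusted p = 0.806) did not pass on element 9895. FVB/NJ was higher than DBA/2 by 0.75 (adjusted p = 4.29e-03). The pool in which the 4 elements disagreed most was 129X1/SvJ pool 4, at -0.49, -0.10, 0.31 and 0.52 on elements 9895, 10087, 10982 and 11174.

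**Figure D2:**
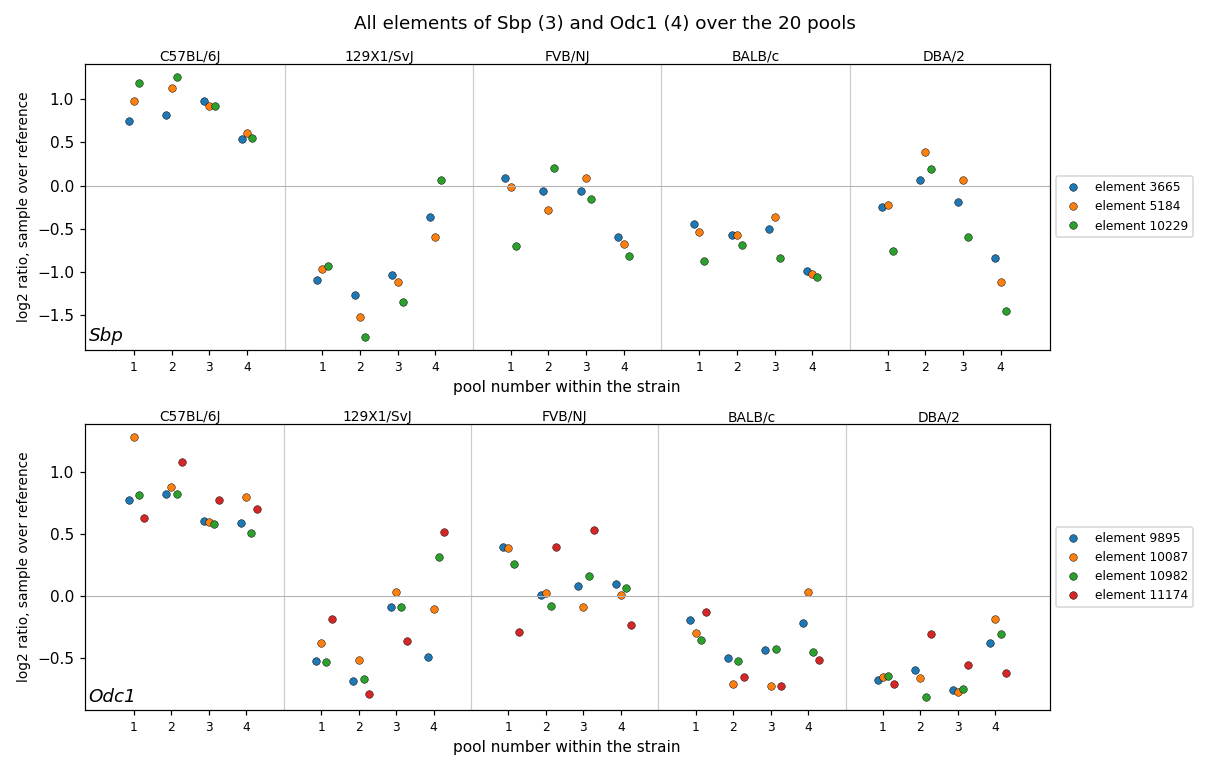
Log2 ratio of pool over reference (vertical axis) for the 3 elements of Sbp (upper panel) and the 4 of Odc1 (lower panel) in each of the 20 pools (horizontal axis, pool numbers within strains). Every element of both genes lay highest in the C57BL/6J pools, and the elements of Odc1 spread most in 129X1/SvJ pool 4.

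Over the 20 pools the elements of Sbp correlated with each other at r of 0.921 to 0.976 and those of Odc1 at 0.782 to 0.945. Once each strain's mean was removed the elements of Sbp still correlated at 0.80 to 0.90, and those of Odc1 at 0.03 to 0.81, median 0.513, so that within strains some elements of Odc1 hardly followed each other. Sbp and Odc1 correlated at r = 0.736 over all pools and at -0.0969 with strain means removed. Azgp1 correlated with Odc1 at 0.474 and with Sbp at 0.419 over all pools, and at -0.0695 and -0.0281 within strains. These are descriptions of 20 arrays that share 5 strains and 2 dye orientations.

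The genes most like each of the 3 over the 20 arrays, among elements with 1 symbol and no missing value, were Pggt1b (r = 0.883), Sprr2a1 (0.820) and Mt2 (0.819) for Azgp1, Asah2 (0.908), Kel (0.874) and Pttg1 (0.855) for Sbp, and Kel (0.844), Hspb8 (0.837) and Sh3bgrl3 (0.831) for Odc1. Kel was thus common to Sbp and Odc1. With strain means removed, Kel correlated with Sbp at 0.308 and with Odc1 at -0.0229. The named genes then ranged from -0.301 (Pttg1 with Sbp) to 0.492 (Sh3bgrl3 with Odc1), so the likeness lay largely in the strain means.

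As a mean, markers of luminal epithelium were not highest in C57BL/6J, where Azgp1, Sbp and Odc1 were, though single markers differed in both directions. The mean log2 ratio of 10 luminal markers other than the members was -0.27 to -0.06 in the C57BL/6J pools, against 0.01 to 0.30 in 129X1/SvJ, -0.12 to 0.02 in DBA/2, -0.18 to -0.02 in BALB/c and -0.13 to 0.00 in FVB/NJ. Of the 11 luminal markers measured with Pbsn among them, 3 passed the F test (27.3%, against 12.5% of 5820 named genes): Tmprss2, an androgen-regulated serine protease, was higher in C57BL/6J by 0.40, and the epithelial adhesion molecule Epcam and the surface antigen Psca were lower, at -0.50 and -1.17 against the other strains. Psca is 1 of the 10 markers in the luminal mean, which was not taken without it. Of 5 basal markers none passed. Of 6 adipose markers 3 passed. C57BL/6J was lower than the other strains for 2 of them, the fatty acid binding protein Fabp4 (-0.63) and the carbonic anhydrase Car3 (-0.84). Of all 5820 named genes, 111 were higher in C57BL/6J and 103 lower. The mean of the 6 adipose markers was -0.59 to -0.11 in the C57BL/6J pools, against -0.05 to 0.48 in 129X1/SvJ, -0.06 to 0.19 in DBA/2, 0.00 to 0.17 in BALB/c and -0.26 to -0.19 in FVB/NJ. The median difference of C57BL/6J from the other strains was -0.31 over the 6, against -0.01 over all named genes. Of 9 seminal vesicle markers 3 passed, and their mean was 0.30 to 0.90 in BALB/c pools, against -2.50 to 0.27 in those of the other 4 strains, among them the 4 C57BL/6J pools at -2.50 to 0.27. The part of these cells in the member values was not tested.

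Rnase1 split the strains in another way. Its element (10115) stood at 0.44, 0.11, 0.46 and 0.60 in C57BL/6J, at -0.61, -1.04, -0.47 and -1.13 in 129X1/SvJ, at 0.23, 0.18, 0.07 and 0.56 in FVB/NJ, at -1.34, -1.10, -1.13 and -1.11 in BALB/c, and at 0.17, 0.50, 0.57 and 0.45 in DBA/2. All 8 pools of 129X1/SvJ and BALB/c were below all 12 pools of the other strains, and within these 2 sets the strains overlapped. This split was read from the values themselves, and the share of all elements that part in this way was not counted. The means were 0.42 ± 0.17 in DBA/2, 0.40 ± 0.21 in C57BL/6J, 0.26 ± 0.21 in FVB/NJ, -0.81 ± 0.32 in 129X1/SvJ and -1.17 ± 0.11 in BALB/c (SD, n = 4 each), a range of 3.01-fold (limma F test, adjusted p = 2.03e-07).

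Each strain differed from the mean of the others for Rnase1. BALB/c was lower, at -1.24 (SE 0.12, limma adjusted p = 2.00e-06), as was 129X1/SvJ at -0.79 (adjusted p = 3.00e-04). DBA/2 was higher by 0.75, C57BL/6J by 0.73 and FVB/NJ by 0.55 (adjusted p of 8.56e-04, 9.06e-04 and 0.0149), where 1.09%, 1.77% and 1.22% of all elements were higher in those strains. The 6 pairs that cross the 2 sets all passed and the other 4 did not, so the step between FVB/NJ (0.26) and 129X1/SvJ (-0.81) was the only neighbouring one called (1.07 higher in FVB/NJ, adjusted p = 0.0336). The 129X1/SvJ call was lost under quantile normalization (-0.44) and the FVB/NJ call without FVB/NJ pool 4 (0.45). The FVB/NJ call was also lost on the Cy5 arrays alone (0.41) and on the Cy3 arrays alone (0.68). So was the DBA/2 call (0.93 and 0.58), and the C57BL/6J call was lost on the Cy5 arrays alone (0.62).

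The genes most like Rnase1 over the 20 arrays were Tmem64 (r = 0.881), Chm (0.873) and P2rx7 (0.809), at 0.182, 0.482 and -0.0193 with strain means removed. Of 4 ribonucleases and inhibitors of the list measured, 3 passed the F test (75%, against 12.5% of named genes). Rnase1 itself was among them, and each had its own order. Rnase4, a secreted ribonuclease of the same family, was highest in 129X1/SvJ (0.71) and lowest in C57BL/6J (-0.43), 2.20-fold apart. Rnaset2b, a lysosomal ribonuclease of another family, was highest in C57BL/6J (0.15) and lowest in 129X1/SvJ (-0.83), 1.98-fold apart. Rnh1, the intracellular inhibitor, did not pass (adjusted p = 0.260).

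**Figure D3:**
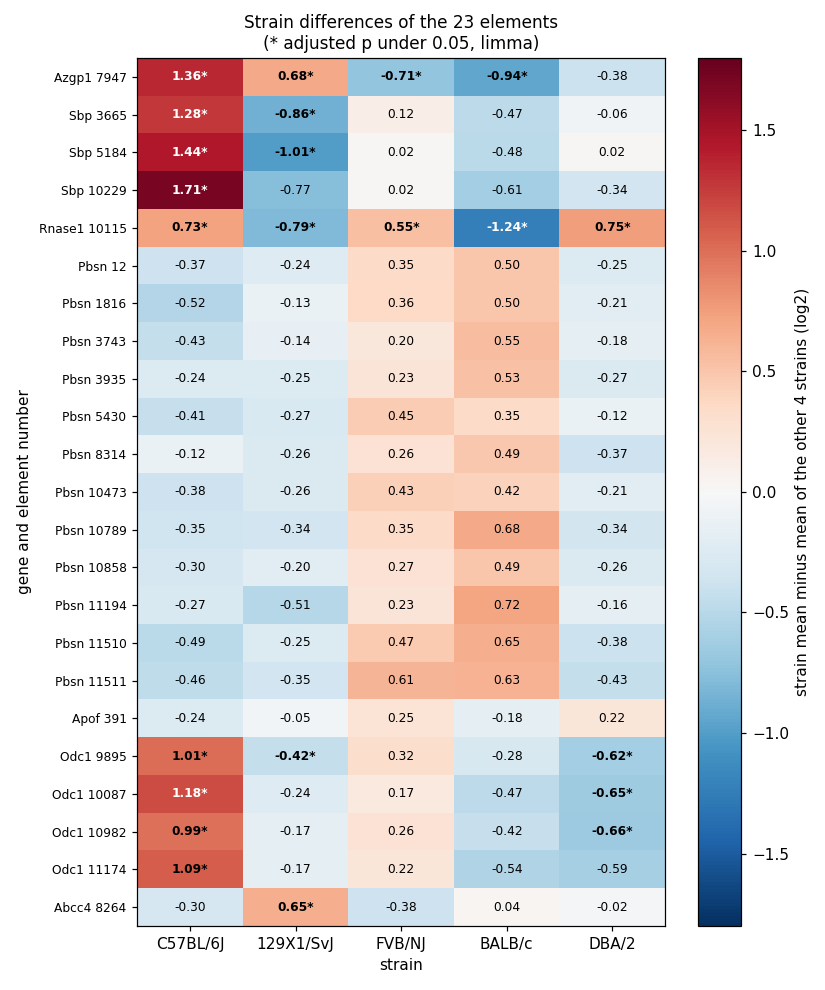
Mean log2 ratio of each strain minus the mean of the other 4 strains (colour and number) for the 23 elements (rows, gene and element number) in 5 strains (columns). Asterisks mark the 23 differences with a limma adjusted p under 0.05: 9 of them are higher values in C57BL/6J, and none is in a Pbsn or Apof row.

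Pbsn, the best known androgen-dependent transcript of the set, varied with the dye of the pool on all of its 12 elements. Averaged over the 12 elements, the C57BL/6J pools stood at -0.03 and 0.00 in Cy5 and at -0.79 and -0.42 in Cy3, and the 129X1/SvJ pools at 0.08 and 0.09 in Cy5 and at -0.55 and -0.56 in Cy3. The FVB/NJ pools stood at 0.76 and 0.67 in Cy5 and at -0.21 and -0.19 in Cy3. The BALB/c pools stood at 0.98 and 0.91 in Cy5 and at -0.04 and -0.20 in Cy3, and the DBA/2 pools at 0.15 and 0.33 in Cy5 and at -0.73 and -0.68 in Cy3. Within every strain both Cy5 pools were above both Cy3 pools, and the strains did not sort apart over all 20 values.

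With strain in the model, Cy5 pools were higher than Cy3 pools for all 12 Pbsn elements, by 0.35 to 1.16 on the log2 scale or 1.27-fold to 2.24-fold (limma adjusted p from 1.49e-06 to 0.0232), and for Sbp elements 5184 (0.45, adjusted p = 0.0287) and 10229 (0.65, adjusted p = 0.0124). That made 14 of 23 member elements, where 8.57% of all elements were higher in Cy5, and no member element was lower, where 7.37% of all elements were (1 of the 23, Odc1 element 10087, was lower at an unadjusted p under 0.05). Odc1 element 10087 was called lower in Cy5 when arrays were scaled to the same spread (-0.34), under quantile normalization (-0.54), with weights for the arrays (-0.37), and without the 129X1/SvJ arrays (-0.35) or pool 2 or 4 of that strain (-0.34 and -0.32). Sbp element 3665 was called higher with weights for the arrays (0.32) and without any 1 of 3 pools, and Odc1 element 11174 with the pool number as a block (0.48) and without BALB/c pool 1 (0.40). The call on Sbp element 5184 was lost without any 1 of 5 pools (0.39 to 0.44), both Sbp calls were lost under quantile normalization (0.37 each), and that on Pbsn element 3743 without the 129X1/SvJ arrays (0.27). Of the 60 combinations of a Pbsn element and a strain, 59 had the Cy5 mean above the Cy3 mean and 57 had both Cy5 pools above both Cy3 pools. A Cy5 mean above the Cy3 mean in all 5 strains was seen for every Pbsn element but 3743 (-0.09 in C57BL/6J), and for 13.7% of all elements. The shares of all elements for single strains and for dyes without overlap were not counted.

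**Figure D4:**
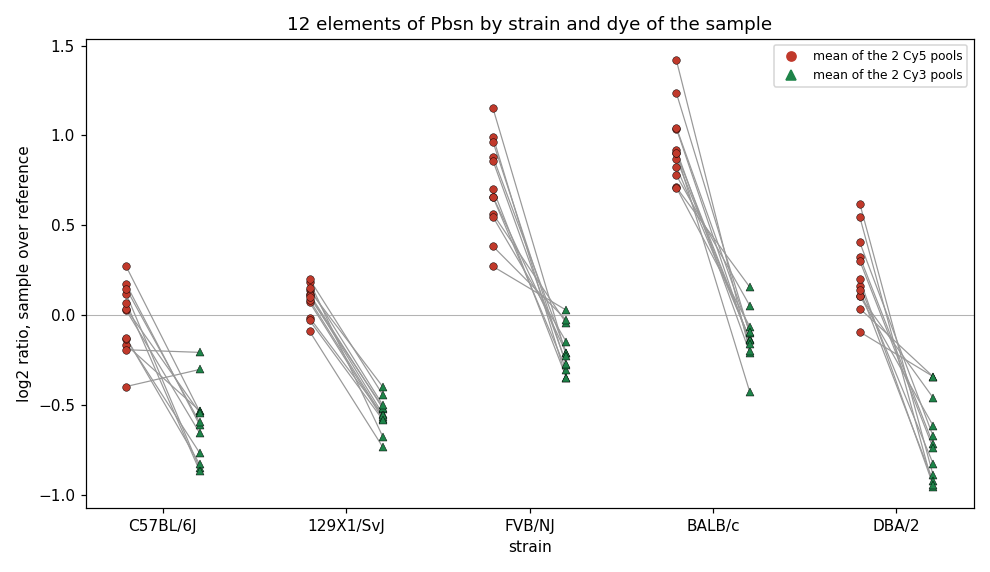
Mean log2 ratio of the 2 Cy5 pools (circles) and of the 2 Cy3 pools (triangles) of each strain for the 12 Pbsn elements, joined by a line for each element. The Cy5 mean was above the Cy3 mean in 59 of 60 cases, and within each dye the BALB/c and FVB/NJ values lay higher than those of the other strains for most elements.

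In the F test without a dye term, 1 of the 12 Pbsn elements passed (3743, adjusted p = 0.0792) and 11 did not (0.169 to 0.752). Strain means of an element differed by 1.55-fold to 1.97-fold at most. The call on element 3743 was lost without any 1 of 11 pools, with the pool number as a block and without moderation of the variances. Other elements gained it. Element 3935 passed when arrays were scaled to the same spread (limma adjusted p = 0.0910), under quantile normalization (0.0846), with weights for the arrays (0.0491), without the 129X1/SvJ arrays (0.0693), without 129X1/SvJ pool 4 and without BALB/c pool 4. Elements 11510 and 11511 passed with the pool number as a block (0.0844 and 0.0809). On the Cy5 arrays alone 17 member elements passed, 9 of them of Pbsn, where 2.69% of all elements did. On the Cy3 arrays alone 13 member elements passed, where 7.09% of all elements did. Those of Pbsn were elements 1816, 11510 and 11511 (limma adjusted p of 0.0846, 0.0324 and 0.0141), and element 3743 did not pass there (0.342). None of the 60 contrasts of a strain with the others passed for Pbsn in limma (6 had an unadjusted p under 0.05), and for element 12, which represents the gene, none of the 10 pairs passed (2 at an unadjusted p under 0.05).

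With dye as a term, all 12 Pbsn elements passed the F test (limma adjusted p from 3.79e-05 to 0.0257). BALB/c was then higher than the mean of the other strains on 11 of the 12, all but element 5430, with differences of 0.35 to 0.72 over the 12, where 1.42% of all elements were higher in BALB/c in that model. FVB/NJ was higher on 3 (0.20 to 0.61 over the 12), where 1.63% of all elements were. C57BL/6J was lower on 3 (-0.52 to -0.12), DBA/2 on 3 (-0.43 to -0.12) and 129X1/SvJ on 1 (-0.51 to -0.13), where 1.99%, 1.33% and 3.67% of all elements were lower in those strains. BALB/c had the highest mean on 10 elements and FVB/NJ on the other 2, and C57BL/6J the lowest on 9. The dyes were balanced within each strain, so these differences are the same with and without the dye term, and the term changed only the spread they were set against. C57BL/6J thus held the highest means of Azgp1, Sbp and Odc1 and, by a small margin, the lowest mean of Pbsn on most of its elements. On element 12 it lay 0.095 below DBA/2, the next strain (limma test of the pair without a dye term, adjusted p = 0.904). Averaged over the 12 elements, the means were -0.31 in C57BL/6J, -0.23 in 129X1/SvJ and -0.23 in DBA/2. The last place of C57BL/6J for Pbsn was therefore not resolved from these 2 strains.

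Averaged over the 12 elements, the Cy5 pools exceeded the Cy3 pools by 0.59 in C57BL/6J, 0.64 in 129X1/SvJ, 0.92 in FVB/NJ, 1.07 in BALB/c and 0.94 in DBA/2. A test of whether the dye difference itself varied with strain called none of the 23 member elements in limma (lowest adjusted p 0.179, 6 at an unadjusted p under 0.05), where 0.485% of 11136 elements were called. The origin of the dye difference was not tested.

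**Figure D5:**
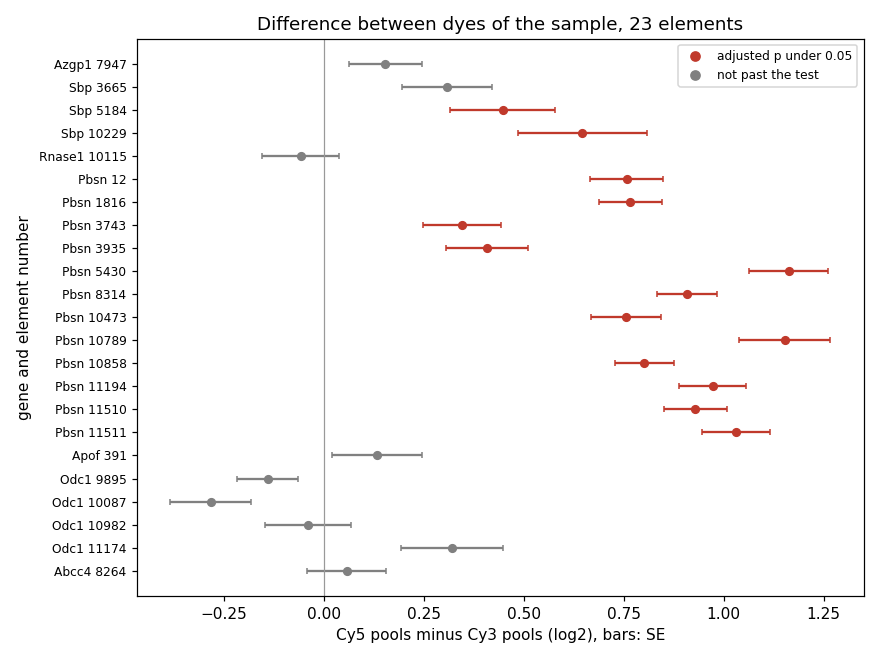
Difference between Cy5 pools and Cy3 pools, in log2 with its SE, for the 23 member elements with strain in the model (rows, gene and element number). The 12 Pbsn elements lie at 0.35 to 1.16 and 2 Sbp elements at 0.45 and 0.65, coloured for a limma adjusted p under 0.05, and the other elements lie between -0.28 and 0.32.

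The 12 Pbsn elements correlated with each other at r of 0.653 to 0.982, median 0.929. The genes most like Pbsn over the 20 arrays were Defb1 (r = 0.830), Selenof (0.827) and Luzp2 (0.826), which passed the test between dyes themselves (adjusted p of 8.22e-05, 7.35e-04 and 5.73e-04) and not the F test over strains. Sbp and Pbsn correlated at 0.0239 over all pools and at 0.571 with strain means removed, and these pools share the dyes.

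Abcc4 (element 8264) was highest in 129X1/SvJ, at 0.28, 0.43, 1.01 and 0.39 in its pools. It stood at -0.51, -0.23, -0.01 and -0.18 in C57BL/6J, at -0.52, -0.41, -0.10 and -0.18 in FVB/NJ, at -0.22, 0.12, 0.25 and 0.00 in BALB/c, and at -0.15, 0.13, -0.11 and 0.06 in DBA/2. The 4 pools of 129X1/SvJ were above all 16 other pools, as for 0.672% of all elements, and the other strains overlapped. 129X1/SvJ exceeded the mean of the others by 0.65 (SE 0.12, limma adjusted p = 2.52e-03), the strain means ranged 1.77-fold (F test, adjusted p = 8.10e-03), and both calls were lost on the Cy5 arrays alone (0.38 and 0.58). None of the 10 pairs of strains passed on its 8 arrays (limma adjusted p from 0.109, 6 pairs at an unadjusted p under 0.05).

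Of 5 export pumps measured, 2 passed the F test (40.0%, against 12.5% of named genes), Abcc4 and its relative Abcc3. Abcc3, a basolateral pump for conjugates, was also highest in 129X1/SvJ (0.19) and lowest in C57BL/6J (-0.25), 1.35-fold apart (F test, adjusted p = 0.0379). The genes most like Abcc4 were Dynlt1b (r = 0.812), Zwint (0.811) and Ror1 (0.806). Abcc4 and Sbp correlated at -0.605 over the 20 arrays and at -0.120 with strain means removed.

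Apof (element 391) did not pass the F test (limma adjusted p = 0.439). It stood at -0.36, -0.19, -0.12 and -0.21 in C57BL/6J, at 0.02, -0.76, 0.32 and 0.16 in 129X1/SvJ, at -0.08, 0.04, 0.31 and 0.42 in FVB/NJ, at -0.42, 0.16, -0.25 and -0.16 in BALB/c, and at 0.13, 0.17, 0.10 and 0.19 in DBA/2. The DBA/2 pools lay within 0.09 of each other and the 129X1/SvJ pools, from pool 2 to pool 3, spanned more than the pools of the other 4 strains combined. Means ranged 1.31-fold, between 0.17 ± 0.23 in FVB/NJ and -0.22 ± 0.10 in C57BL/6J (SD, n = 4 each), and no pair or strain contrast passed (4 of 10 pairs and 0 of 5 strain contrasts had an unadjusted p under 0.05). Without 129X1/SvJ pool 2, or without all arrays of that strain, Apof passed the F test at the same range. The genes most like it were Higd1a (r = 0.784), Pfkfb2 (0.708) and Cyp3a25 (0.704). Of 6 apolipoproteins measured 2 passed (33.3%, against 12.5% of named genes). They were Apod, highest in FVB/NJ (0.57) and lowest in DBA/2 (-0.43), and Apoc1, highest in DBA/2 (0.45) and lowest in 129X1/SvJ (-0.40).

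Around Odc1, 4 of 10 measured genes of polyamine synthesis and turnover passed the F test, 40.0% against 12.5% of named genes, and only Odc1 was higher in C57BL/6J. Spermine synthase, Sms, which makes spermine from spermidine, stood at 0.41 in BALB/c and -0.42 in FVB/NJ, 1.78-fold apart (limma adjusted p = 5.14e-03), with C57BL/6J at -0.27. Mtap, which salvages the methylthioadenosine that spermidine and spermine synthase release, was highest in DBA/2 (0.25) and lowest in 129X1/SvJ (-0.47), 1.64-fold apart. Arg2, the mitochondrial arginase that supplies ornithine, was highest in BALB/c (0.24) and lowest in DBA/2 (-0.29), 1.44-fold apart. The median difference of C57BL/6J from the other strains over the 10 genes was 0.09, against -0.01 over all named genes. The acetyltransferase Sat1 and the antizyme inhibitor Azin1 did not pass (adjusted p of 0.537 and 0.460).

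Of 28 measured secretory proteins of the prostate and seminal vesicle, 16 passed the F test (57.1%, against 12.5% of 5820 named genes). C57BL/6J was highest for 6 of the 16, DBA/2 lowest for 6, and BALB/c and 129X1/SvJ lowest for 4 each. C57BL/6J was higher than the other strains for 7 genes, Azgp1, Sbp and Rnase1 among them, and lower for 1. Of all 5820 named genes, 111 were higher in C57BL/6J and 103 lower. Ranges of the 16 ran up to 190-fold for the seminal vesicle protein Svs2, highest in BALB/c (1.83) and lowest in DBA/2 (-5.74), and 102-fold for Svs5, so the members' ranges of 3.01-fold to 3.57-fold were not among the 8 largest, which also held Pate4, Pate14, Spink8, Clu, Mmp7 and 9530053A07Rik. Of these, Pate14 (19.7-fold) and 9530053A07Rik (6.04-fold) were highest in C57BL/6J as well. In a list of 16 measured androgen-regulated genes 8 passed (50.0%): Azgp1, Sbp, Odc1 and Tmprss2 were higher in C57BL/6J, and Fabp5, which binds fatty acids, was lower there, at -0.78 against 0.72 in DBA/2. Pmepa1 was highest in C57BL/6J (0.31), Egf in BALB/c (0.41) and Abcc4 in 129X1/SvJ. These lists were drawn up with earlier results of the same arrays known and give no independent support. Of 6 lipocalins measured, the family of Pbsn, only Apod passed (16.7%, against 12.5% of named genes).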

How the data were processed

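The deposited values are log2 ratios of pool over common reference, 1 column an array. As the authors describe, arrays were scanned and read with GenePix, the median background was subtracted from the median signal, spots not above background were set to missing, and ratios were normalized within each array by print-tip loess. Of the values, 2.89% were missing. Spots with many missing values were still present, and the authors' removal of dim spots was not repeated, since intensities were not used here. Strain, pool number and dye came from the sample labels. All arrays were read as pool over reference, as the methods state for both dye orientations. Over 348 elements that passed the F test with strain ranges above 1, the mean linear ratio over the 20 arrays had a median of 1.01. This is close to the value of 1 that a reference made of all samples gives, and the median was 1.17 with the sign turned. The sign was turned on all arrays together, so the 2 dye orientations were not checked apart. The lowest correlation between same-dye arrays of 2 strains was -0.124, and the highest between any 2 arrays 0.732, so none was a copy.

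An element entered the tests with up to 3 values missing, if each strain kept 2 or more: 11159 did and 393 did not. Symbols came from the platform annotation: 8050 elements had 1 symbol, 672 several and 2830 were not in it. Limma 3.58.1 in R 4.3.3 gave the F test over 5 strains (adjusted p of at most 0.1), each strain against the other 4, the 10 pairs on their own 8 arrays and Cy5 against Cy3 with strain in the model (adjusted p under 0.05), with Benjamini-Hochberg adjustment over all elements and moderated standard errors. Limma stands in for SAM, which the study used. Log ratios carry no counts, so that the number of arrays limits the precision. List genes that passed the F test are named up to 8 a list by range, and the 3 genes most correlated with each member are named. The scripts were tested on simulated data. The members, lists and tests were chosen with earlier results of these data known. Alternatives covered missing values, scaling between arrays, dye, block, element averaging, the estimate of spread, weights, the 129X1/SvJ arrays and each pool in turn, and single dyes and the strain by dye interaction were added after seeing the data.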

Additional observations from a re-analysis of the deposited data

Results flagged for a closer look

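In 1 of the 115 groups of 4 pools (23 elements in 5 strains), 1 pool lay far from the other 3: Rnase1 (element 10115) stood at -1.34 in BALB/c pool 1, below -1.13, -1.11 and -1.10 in the other BALB/c pools. Chance marks about 1 in 20 such groups. The BALB/c call on Rnase1 was made without that pool too.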

How the results depend on the processing

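No result that passed its test in the main analysis changed direction under any alternative, and the direction of results that did not pass was not followed. Of 23 member elements, 11 differed among strains (11.3% of all elements), against 22 with dye as a term (15.6%). The count was 17 on the Cy5 arrays alone (2.69%) and 13 on the Cy3 arrays alone (7.09%). Calls of 1 strain against the others numbered 23 (3.09% of such contrasts over all elements), against 45 with dye as a term (4.18%). They numbered 16 on the Cy5 arrays alone (0.762%) and 18 on the Cy3 arrays alone (2.13%). The 9 elements higher in C57BL/6J numbered 5 on the Cy5 arrays alone and 9 on the Cy3 arrays alone. The 41 calls between pairs of strains (2.26% over all elements) numbered 81 with dye as a term (3.37%), 63 with the pool number as a block (2.74%) and 23 without moderation of the variances (1.13%). The dye term left the strain differences of the members as they were and changed the spread they were set against. Fits of 1 dye used fewer arrays. The cause of these shifts was not tested. Leaving out 1 pool at a time gave 10 to 12 elements among strains, 5 to 6 genes among strains, 21 to 26 strain calls, 9 elements higher in C57BL/6J throughout, 34 to 44 pair calls and 13 to 16 elements higher in Cy5, against 14 with all pools. Of single values, 74 crossed the threshold under other settings and 32 when a pool was left out.

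Pools of the same number come from different mice in each strain, but they share the dye in 4 of the strains, all but 129X1/SvJ, where the order of dyes is turned round: their deviations from strain means correlated at a median of 0.213 over 40 pairs (lowest -0.339, 22 above 0.1), and at 0.0887 with the dye removed. Apart from the pairs, the block left the counts close, at 12 elements and 5 genes among strains, 24 strain calls, 9 higher in C57BL/6J and 15 higher in Cy5.

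The values are ratios to a reference that contains every strain, in 4 pools a strain, so small differences could not be called and no level over background is known. The 129X1/SvJ calls on Azgp1 and Abcc4 were made under both rescalings of the arrays (same spread and quantile), that on Rnase1 under the same spread only, and those on Sbp and Odc1 under neither.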
